A study of Bos taurus with 6 samples.

Results

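The genes described here are the receptors of the tumour necrosis factor (TNF) superfamily and their ligands. Rows were selected by gene symbol: every numbered TNFRSF or TNFSF symbol, together with TNF, LTA, LTB, CD40, CD40LG, CD27, CD70, LTBR and NGFR. This gave 38 rows of the 32183 genes listed, 21 receptors and 17 ligand rows, under 37 symbols, because TNFSF12 has 2 rows. The superfamily itself was picked with the butyrate contrast already known, TNFRSF18 being among the large rises, so the butyrate against control values of its members are given as a description and support nothing by themselves. Control levels are likewise given with no test.

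RNA-seq was made from rumen epithelial primary cells (REPC) of Bos taurus, isolated from one 2-week-old Holstein bull calf that had received milk replacer only. The butyrate group is 3 cultures kept in medium with 5 mM butyrate for 24 h, and the control group is 3 cultures of the same cells without it. Butyrate is a short-chain fatty acid made by rumen microbes and an inhibitor of histone deacetylases. The methods call the 3 cultures of each condition biological replicates, but all cells came from a single animal, so the spread between cultures holds no variation between calves.

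TNF superfamily ligands are mostly trimers on the surface of a cell or shed from it, and they act by clustering their receptors. Receptors with a death domain in their cytoplasmic tail can lead to caspase activation, receptors that bind TRAF adaptors lead mainly to NF-kB and MAP kinase signalling, and decoy receptors hold a ligand without passing on its signal. Epithelia are known for responding to TNF and lymphotoxin, whereas many other members are best known from lymphocytes.

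Levels are FPKM, fragments per kilobase of transcript scaled to the mapped fragments of the library, which can be compared between genes because they are per length. The sum of FPKM was 678035 to 681912 in the control cultures and 619401 to 629037 in the butyrate cultures, and 16051 to 16193 against 17306 to 17510 genes were above 0. The correlation across genes between cultures of a group was 0.995 for every pair of control and every pair of butyrate cultures. The files hold no read counts, so precision is judged from the confidence interval that Cufflinks wrote beside each FPKM. Among epithelial markers, KRT17 had 3859 ± 87.0 FPKM in control and 3990 ± 229 in butyrate cultures (SD, n = 3), and CDH1 had 49.8 ± 1.49 and 48.9 ± 2.11. These do not stand for the whole list: by the rule given below, 8 of 13 epithelial markers were called higher and 1 lower. Among all genes tested the shares were 32.5% and 25.9%. COL1A1, a collagen gene typical of fibroblasts, was also abundant, at 1149 ± 34.9 and 1941 ± 109 FPKM. Levels of other fibroblast markers varied widely: THY1 had 21.5 and 87.6 FPKM, PDGFRA 0.306 and 0.967, and FAP 0.0150 and 0.0333. In bulk RNA, fewer cells of a type and less RNA per cell cannot be told apart, and this holds for every value that follows.

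Without butyrate, receptor transcripts were dominated by the Fn14 gene TNFRSF12A and the decoy receptor gene TNFRSF6B. Together these made up 84.4% ± 0.275 of the summed receptor FPKM in control cultures, and 84.9% ± 0.070 in butyrate cultures (SD, n = 3). The receptor sum was 1042 ± 40.0 FPKM in control and 1211 ± 52.6 in butyrate cultures, and the ligand sum was much lower, at 30.4 ± 1.71 and 45.4 ± 2.72. A mean of at least 1 FPKM was reached by 12 members in control, 9 receptors and 3 ligands, and by 15 in butyrate cultures, 12 receptors and 3 ligands.

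The order of receptor levels in control cultures was TNFRSF12A, TNFRSF6B, TNFRSF1A, LTBR, TNFRSF21, CD40, TNFRSF10D, TNFRSF1B and TNFRSF9, all with a mean of at least 1 FPKM. The ranges over cultures of LTBR and TNFRSF21 overlapped, so these neighbours were not ordered beyond their spread, while the ranges of the other neighbours in this series were separate. Below them, TNFRSF11B, TNFRSF25 and TNFRSF4 overlapped one another. Among ligands the order was TNFSF9, TNFSF12 and TNFSF13 with separate ranges, followed by LTB and TNFSF15, whose ranges overlapped.

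**Figure D1:**
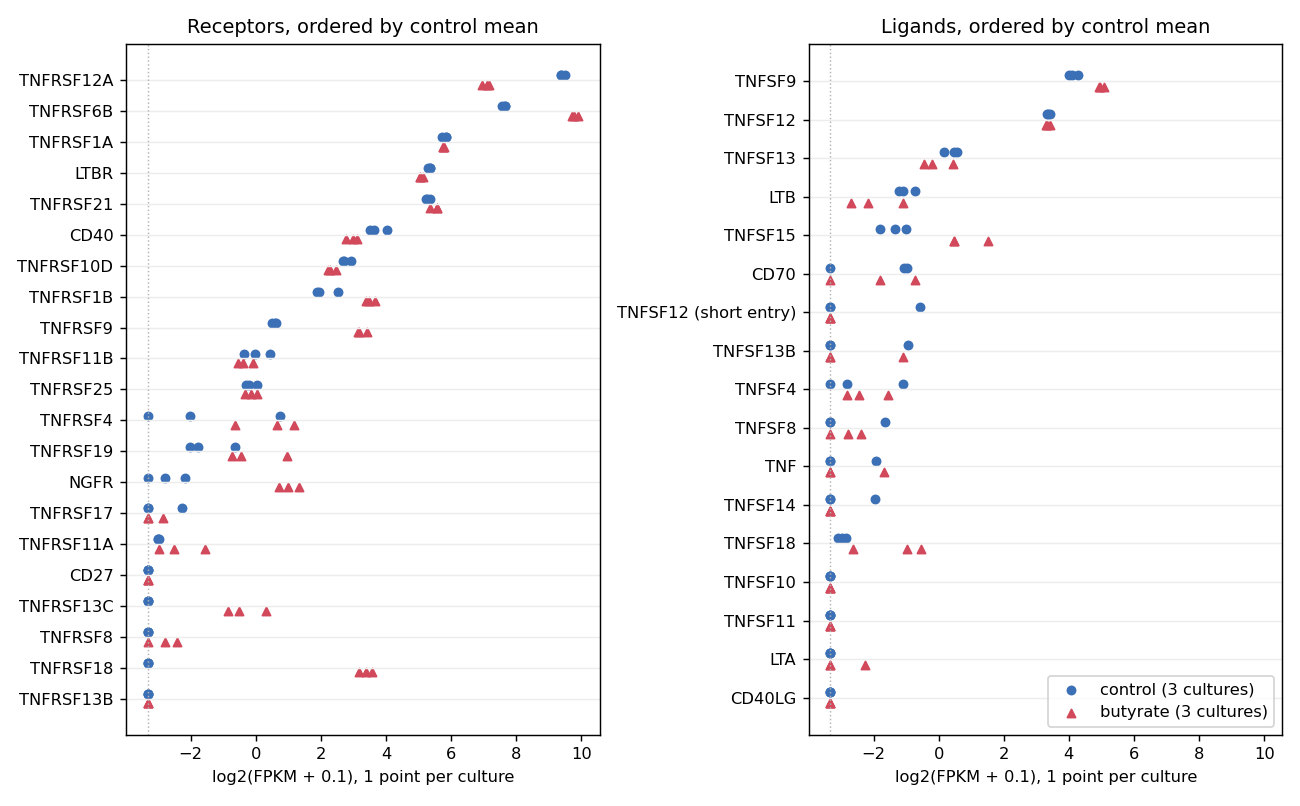
Level of each of the 38 rows in each culture, as log2(FPKM + 0.1) on the horizontal axis, with receptors on the left and ligands on the right, ordered by control mean. Circles are the 3 control cultures, triangles the 3 butyrate cultures, and the dotted line marks 0 FPKM. TNFRSF12A and TNFRSF6B exchange places at the top, and TNFRSF18 lies on the dotted line in all 3 control cultures and away from it in all 3 butyrate cultures.

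A gene was tested where its mean over the 6 cultures was at least 0.1 FPKM, which 25 member rows and 15813 genes in all reached. It is called higher or lower after butyrate where the Benjamini-Hochberg adjusted p of limma on log2(FPKM + 0.1) was below 0.05. Of the tested members, 10 were called higher, where 32.5% of all genes tested were, and 4 were called lower, where 25.9% were. The other 11 were not called. Under the stricter thresholds that the methods give for a differentially expressed gene, a Bonferroni-corrected p below 0.05 and a log2 fold change beyond 2, TNFRSF18, TNFRSF6B and TNFRSF9 were higher (3 members, against 2.46% of all genes) and TNFRSF12A was lower (1 member, against 1.51%). Only the thresholds are those of the methods. Both quantities came from the limma fit, so these are not the study's own calls, which were made with Cufflinks. All 3 butyrate values lay above all 3 control values for 9 tested members, against 36.1% of all genes tested, and below them for 4, against 28.9%.

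These counts depend on the scaling between cultures. With quantile normalization 9 members were called higher and 7 lower, and with FPKM rescaled to the same sum in each culture 11 were called higher and 2 lower. The median log2 fold change of all genes tested was 0.10, and it moved by -0.15 and 0.14 under these scalings. The median over the tested members was 0.15, 0.80 for the 16 receptors and -0.02 for the 9 ligands. TNFRSF18, TNFRSF13C, NGFR and TNFSF18 passed the filter only through their butyrate values. A count or median over the tested members is therefore not one over the family. TNFRSF18, TNFRSF13C and NGFR are receptors and raise the receptor median, so the medians do not compare receptors with ligands.

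**Figure D2:**
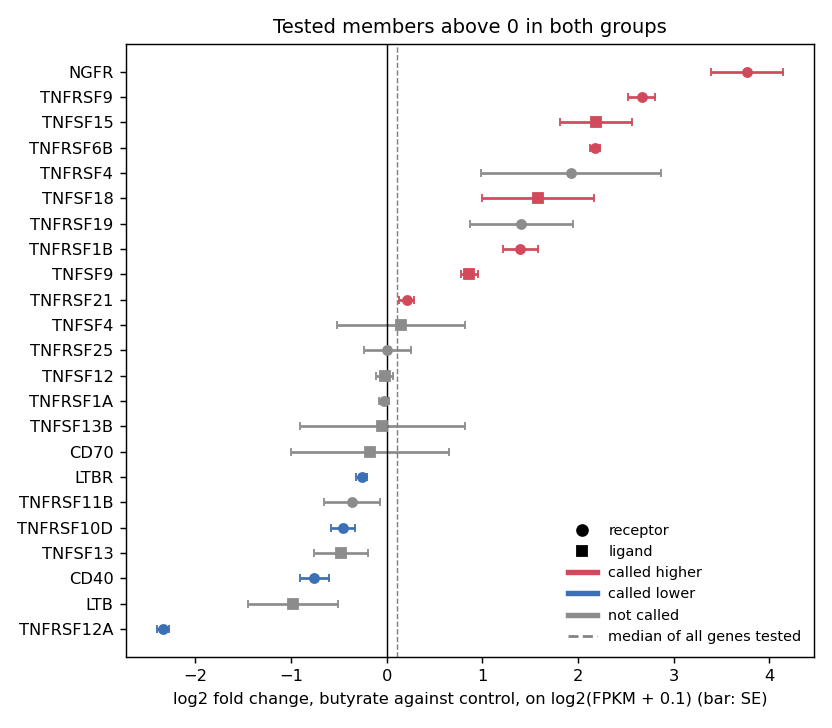
Log2 fold change of butyrate against control on log2(FPKM + 0.1), with its standard error as a bar, for the 23 tested members that were above 0 in both groups (TNFRSF18 and TNFRSF13C are left out, being listed at 0 in control). Circles are receptors and squares ligands, red and blue mark members called higher and lower, grey those not called, and the dashed line is the median of all genes tested, 0.10. NGFR lies farthest to the right at 3.77 and TNFRSF12A farthest to the left at -2.34. The signs of TNFRSF1A, TNFRSF25, TNFSF12 and TNFSF4, all near 0, turn under another scaling.

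The most abundant receptor before treatment was TNFRSF12A (Fn14), the receptor of the ligand TWEAK, which signals through TRAF adaptors. It lies on chromosome 25 from 2438018 to 2441777 of the UMD 3.1 build. Its FPKM was 662, 665 and 719.8 in control cultures 1 to 3 and 138, 124 and 144 in butyrate cultures 1 to 3. Every butyrate value was far below every control value, and the ratio of the control mean to the butyrate mean was 5.04. The log2 fold change was -2.34 ± 0.06 (SE). Its listed interval overlaps that of CLDN6, a claudin gene whose FPKM was 27.9 to 29.4 in control and 39.3 to 44.6 in butyrate cultures.

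TNFRSF6B moved the other way. This gene encodes a soluble decoy receptor (DcR3) that binds FASLG, TNFSF14 and TNFSF15, and it lies on chromosome 13 from 54526441 to 54529058. Control cultures had 190.3, 199.9 and 201 FPKM and butyrate cultures 874, 955 and 849. The groups were wide apart, with a butyrate to control ratio of 4.53 and a log2 fold change of 2.18 ± 0.05. By level it ranked 650 among all listed genes in control cultures and 86 in butyrate cultures, whereas TNFRSF12A ranked 173 and 863. Its interval lies inside that of RTEL1, a helicase gene with 4.65 to 6.75 FPKM in control and 4.25 to 4.91 in butyrate cultures.

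The exchange between these receptors was seen within each culture. TNFRSF12A exceeded TNFRSF6B 3.48-, 3.33- and 3.57-fold in control cultures 1 to 3, and TNFRSF6B exceeded TNFRSF12A 6.32-, 7.71- and 5.91-fold in butyrate cultures 1 to 3. Such a ratio within a culture does not change when all values of a culture are multiplied by one factor.

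**Figure D3:**
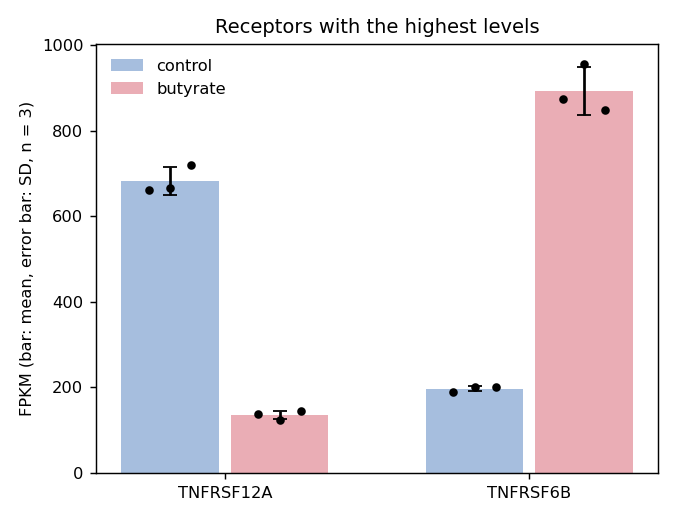
FPKM of TNFRSF12A and TNFRSF6B, with bars for the mean of 3 cultures, error bars for the SD and a point per culture; blue is control and red butyrate. TNFRSF12A has a mean of 682 in control and 135 in butyrate cultures, and TNFRSF6B has 197 and 893.

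TNFRSF18 (GITR), best known as a costimulatory receptor of T cells, lies on chromosome 16 from 52491652 to 52495080. It was listed at 0 in all 3 control cultures and at 8.88, 11.8 and 10.3 FPKM in the butyrate cultures, a mean of 10.3 ± 1.47 (SD, n = 3). The confidence intervals were 6.30 to 11.5, 9.09 to 14.6 and 7.48 to 13.1, so each butyrate culture was clear of 0. It was called higher, and no fold is given against a group listed at 0. In butyrate cultures its range overlapped those of TNFRSF1B and TNFRSF9, and it ranked 6258 by level among all listed genes.

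The next listed gene, 4339 bases away, is TNFRSF4 (OX40), another T cell costimulatory receptor. TNFRSF4 had 0.149, 0 and 1.57 FPKM in control and 0.548, 2.15 and 1.47 in butyrate cultures. The groups overlapped and it was not called (log2 fold change 1.93 ± 0.94), but it was called when control culture 3 was left out, at 3.06. The interval for control culture 3 was 0.505 to 2.64 FPKM and that for control culture 1 was 0 to 0.629.

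Other genes around TNFRSF18 did not share its pattern of 0 in every control and several FPKM in every butyrate culture. SDF4, which encodes a calcium-binding protein of the Golgi, had 41.8 ± 0.570 FPKM in control and 60.9 ± 1.84 in butyrate cultures and was called higher (0.54 ± 0.05). UBE2J2, a ubiquitin-conjugating enzyme gene, had 66.7 ± 8.96 and 82.3 ± 9.76 and was called higher with overlapping groups (0.31 ± 0.11). B3GALT6, a galactosyltransferase gene inside SDF4, was not called (0.10 ± 0.11). FAM132A was listed at 0 in control and reached at most 0.619 FPKM, and TTLL10 was above 0 only in control culture 2, at 0.078.

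**Figure D4:**
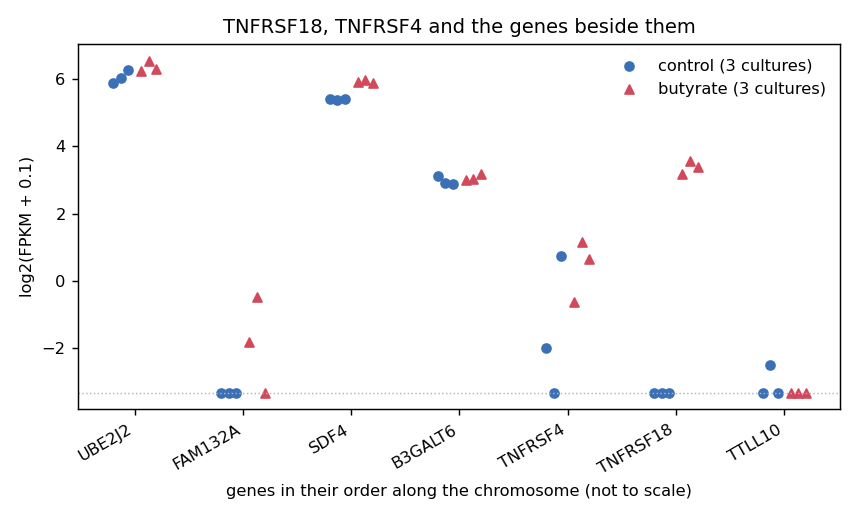
Level of TNFRSF18, TNFRSF4 and the listed genes beside them in their order along chromosome 16 (spacing not to scale), as log2(FPKM + 0.1) per culture, with circles for control and triangles for butyrate and the dotted line at 0 FPKM. TNFRSF18 is on the line in all 3 control cultures and at 8.88 to 11.8 FPKM in butyrate cultures, while the values of TNFRSF4 overlap between the groups.

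TNFRSF18, TNFRSF4 and TNFRSF9 are receptors of T cells, so blood cell markers are given beside them. Of 23 leukocyte markers, 22 were listed and 9 were at 0 in all 6 cultures, among them PTPRC (the pan-leukocyte antigen CD45), CD2, CD4, CD5 and CD28. Their summed level was 28.8 to 30.7 FPKM in control and 44.4 to 46.1 in butyrate cultures. CD247 made up most of the control sum, and CD3G most of the difference between groups. Only 6 markers were tested, and CD3D and ZAP70 reached the filter only through their butyrate values. Of the 6 tested, 4 were called higher, beside 32.5% of all genes tested. These were CD3G, CD3D, ZAP70 and LCK, parts of the T cell receptor complex and its kinases. CD3G went from 0.471 ± 0.171 to 12.8 ± 0.786 FPKM (4.54 ± 0.22 on the log2 scale). CD247 at 23.6 and 21.4 FPKM and CD14 at 5.57 and 6.80 were not called, though every butyrate value of CD247 lay below every control value. FOXP3, the regulator of regulatory T cells, had 0.141 FPKM in control culture 2 and was at or next to 0 in the others.

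TNFRSF9 (CD137), a costimulatory receptor that binds TRAF adaptors, is on chromosome 16 from 46288366 to 46306451. Its FPKM was 1.40, 1.44 and 1.32 in control and 8.84, 10.6 and 8.68 in butyrate cultures. The groups were clearly separate, with a ratio of means of 6.76 and a log2 fold change of 2.67 ± 0.14.

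TNFRSF1B (TNFR2), the TNF receptor without a death domain, is on the same chromosome from 42376244 to 42409768. Control cultures had 3.59, 5.66 and 3.72 FPKM and butyrate cultures 11.1, 12.6 and 10.4. The groups did not overlap, and the log2 fold change was 1.40 ± 0.18.

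LTBR, the lymphotoxin beta receptor, lies on chromosome 5 from 104346660 to 104354420. It had 41.1, 38.9 and 40.4 FPKM in control and 34.9, 32.6 and 32.8 in butyrate cultures. The groups were separate but close. Its log2 fold change was -0.26 ± 0.06, called lower, and the call was lost at -0.14 when FPKM was rescaled to the same sum.

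CD40, the receptor through which helper T cells act on B cells, dendritic cells and some epithelia, lies on chromosome 13 from 75563471 to 75574221. Its FPKM was 11.2, 12.3 and 16.2 in control and 6.79, 8.46 and 7.90 in butyrate cultures. Every butyrate value was below every control value, with a log2 fold change of -0.76 ± 0.15.

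TNFRSF13C, the receptor of B cells for the survival factor BAFF, was listed at 0 in all control cultures and at 0.451, 0.599 and 1.14 FPKM in butyrate cultures. It was called higher, but the confidence intervals of the first 2 values reach down to 0, so it was near the limit of what these libraries detect. The remaining tested member of the TRAF-binding group, TNFRSF19 (TROY), was not called. It ranged from 0.145 to 0.543 FPKM in control and from 0.498 to 1.85 in butyrate cultures, with a log2 fold change of 1.41 ± 0.54, and it passed the threshold in 3 of the alternative fits, at 1.62 after rescaling, 1.83 without control culture 3 and 1.74 without butyrate culture 3. Of the 14 TRAF-binding receptors, 9 were tested, 4 were called higher, 3 lower and 2 were not called, beside 32.5% higher and 25.9% lower among all genes tested. TNFRSF18 and TNFRSF13C, counted as called higher, reached the filter only through their butyrate values, so these counts do not describe the whole group.

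All 4 receptors grouped as death domain receptors were tested, with 2 called higher, beside 32.5% of all genes tested, and 0 lower, beside 25.9% (limma, and also 0 lower at an unadjusted p below 0.05). NGFR, counted as called higher, reached the filter only through its butyrate values. TNFRSF1A (TNFR1), the main receptor of soluble TNF, had 52.6, 57.2 and 56.7 FPKM in control and 53.8, 53.9 and 55.5 in butyrate cultures. The groups overlapped, and the log2 fold change of -0.03 ± 0.05 was not called and turned to 0.04 and 0.10 under quantile normalization and rescaling.

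TNFRSF21 (death receptor 6) had 40.9, 37.7 and 38.2 FPKM in control and 47.1, 47.6 and 40.6 in butyrate cultures. It was called higher at 0.21 ± 0.08, but the groups overlapped, since butyrate culture 3 lay below control culture 1. The call was lost in 6 of 14 alternative fits: without control culture 2 (0.19), control culture 3 (0.20), butyrate culture 1 (0.18) or butyrate culture 2 (0.17), with no filter on low values and with no mean-variance trend.

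NGFR (p75), which binds neurotrophins and is a marker of basal epithelial cells and of nerve support cells, was the lowest of the group in control cultures. Its values there were 0.124, 0.045 and 0 FPKM, against 1.87, 2.41 and 1.55 in butyrate cultures. The groups were separate and the log2 fold change was 3.77 ± 0.38, called higher, although it missed the Bonferroni threshold. TNFRSF25 (death receptor 3) stayed below 1 FPKM in every culture, at 0.717 to 0.921 in control and 0.690 to 0.917 in butyrate cultures, and was not called (0.01 ± 0.25, or -0.59 with quantile normalization).

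Of the 3 receptors grouped as decoys, TNFRSF6B was called higher and TNFRSF10D lower, beside 32.5% and 25.9% of all genes tested. TNFRSF10D was placed here by its symbol, as a membrane decoy for the death ligand TRAIL (TNFSF10). Whether the cattle protein is a decoy was not tested. TNFRSF10D had 7.55, 6.32 and 6.41 FPKM in control and 4.76, 5.37 and 4.59 in butyrate cultures. The groups were separate, with a log2 fold change of -0.45 ± 0.13, and the call was lost at -0.33 after rescaling. TNFRSF11B (osteoprotegerin), the secreted decoy of the bone-resorption ligand RANKL (TNFSF11), was not called, at 0.682 to 1.26 FPKM in control and 0.580 to 0.847 in butyrate cultures (-0.36 ± 0.29, and called lower at -0.95 with quantile normalization).

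Among the 9 ligand rows tested, 3 were called higher, close to the 32.5% of all genes tested, and 0 lower, beside 25.9% (limma, and also 0 lower at an unadjusted p below 0.05). TNFSF18, counted as called higher, reached the filter only through its butyrate values. TNFSF9 (the CD137 ligand), on chromosome 7 from 19186458 to 19190493, was the most abundant. It had 16.8, 15.8 and 19.4 FPKM in control and 31.1, 33.5 and 30.05 in butyrate cultures, so the groups were well apart, with a log2 fold change of 0.86 ± 0.09.

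TNFSF15 (TL1A), the ligand of TNFRSF25 and of the decoy TNFRSF6B, had 0.188, 0.403 and 0.292 FPKM in control and 2.74, 1.28 and 1.28 in butyrate cultures. Butyrate culture 1 had the highest level, and even the lowest butyrate value exceeded all control values. The log2 fold change was 2.19 ± 0.37. TNFSF18, the ligand of TNFRSF18, had 0.027, 0.038 and 0.018 FPKM in control and 0.409, 0.583 and 0.062 in butyrate cultures. Its call (1.59 ± 0.59) was lost in 9 of 13 alternative fits, including every fit without 1 culture except that without butyrate culture 3 (1.17 to 1.64 where lost, 2.21 without that culture).

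TNFSF12 (TWEAK), the ligand of TNFRSF12A, was measured with little spread and was not called. Its main row, on chromosome 19 from 27893142 to 27901018, had 10.1, 9.92 and 10.5 FPKM in control and 10.6, 9.67 and 9.87 in butyrate cultures. The groups overlapped, and the log2 fold change of -0.02 ± 0.09 turned to 0.10 after rescaling. A second, short row of the same symbol, from 27861224 to 27862426, was above 0 only in control culture 2, at 0.573 FPKM.

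TNFSF13 (APRIL), a survival factor of plasma cells, had 1.29, 1.03 and 1.36 FPKM in control and 1.25, 0.636 and 0.763 in butyrate cultures. LTB (lymphotoxin beta) had 0.364, 0.332 and 0.504 in control and 0.363, 0.054 and 0.121 in butyrate cultures. Both overlapped between groups and neither was called (-0.48 ± 0.29 and -0.98 ± 0.47), though quantile normalization called them lower, at -1.01 and -1.82, as did leaving out butyrate culture 1 for LTB, at -1.42. CD70, TNFSF13B (BAFF) and TNFSF4 (the OX40 ligand) stayed below 0.5 FPKM in every culture and were not called.

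The other 13 rows did not reach the filter, and none of them exceeded 0.573 FPKM in any culture. Of these, CD27, TNFRSF13B, TNFSF10, TNFSF11 and CD40LG were listed at 0 in all 6 cultures. TNF itself was at 0 in 4 cultures, with 0.161 FPKM in control culture 2 and 0.210 in butyrate culture 2. LTA, TNFSF8, TNFSF14, TNFRSF8 (CD30), TNFRSF11A (RANK), TNFRSF17 (BCMA) and the short TNFSF12 row were above 0 in at least 1 culture. Of the receptors among them TNFRSF11A reached the highest value, with 0.025 to 0.027 FPKM in control and 0.027 to 0.240 in butyrate cultures. With these files a level listed at 0 means not detected.

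Setting receptors beside their ligands shows where transcripts of both partners were present. TNFRSF9 and TNFSF9 were both called higher. TNFRSF12A was called lower while TNFSF12 was not called. TNFRSF6B and TNFSF15 were both called higher, with means of 893 and 1.76 FPKM in butyrate cultures, while TNFRSF25, the other receptor of TNFSF15, was not called. The other ligands of TNFRSF6B were at 0 in every culture (FASLG) or above 0 only in control culture 1, at 0.159 FPKM (TNFSF14). TNFRSF18 and TNFSF18 were both called higher, but the call of TNFSF18 was lost in 9 of 13 alternative fits. For CD40 the ligand gene CD40LG was listed at 0 in every culture, and for TNFRSF1A and TNFRSF1B the ligand genes TNF and LTA were at or near 0. TNFRSF10D was present without detected TNFSF10, and TNFRSF11B without detected TNFSF11.

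Several members lie next to each other in the genome. LTB, TNF and LTA follow one another on chromosome 23, with 2010 and 99 bases between them, and none of the 3 was called. TNFSF14, CD70 and TNFSF9 follow one another on chromosome 7, with 45340 and 54705 bases between them, and only TNFSF9 was called. TNFSF15 and TNFSF8 are 96233 bases apart on chromosome 8, and TNFSF15 was called while TNFSF8 was below the filter. TNFSF18 and TNFSF4 are 134522 bases apart on chromosome 16, and CD27 and LTBR are 38359 bases apart on chromosome 5.

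Superfamily genes whose symbols lie outside the selection were looked at as a list of 6. FAS, the death receptor of FASLG, had 17.7 ± 0.580 FPKM in control and 8.39 ± 0.885 in butyrate cultures and was called lower (-1.07 ± 0.10). EDA, the ectodysplasin ligand, was called higher from a very low level (0.0136 to 0.386 FPKM, 1.87 ± 0.57). RELT was not called (0.23 ± 0.22), FASLG was at 0 in all 6 cultures, and EDAR and EDA2R did not reach the filter. Of the 3 tested, 1 was called in each direction, beside 32.5% higher and 25.9% lower among all genes. EDA reached the filter only through its butyrate values, and its call was lost without control culture 1, control culture 2 or butyrate culture 2.

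Of 28 adaptors, ubiquitin ligases and death effectors just below the receptors, 27 were listed and tested. In this list 2 were called higher, 7 lower and 18 were not called, beside 32.5% higher and 25.9% lower among all genes tested, and the median log2 fold change was 0.0052 against 0.10. The balance depended on the scaling, since 5 were called higher and 3 lower with FPKM rescaled to the same sum. Without control culture 1, control culture 2 or butyrate culture 2, 1 was called higher. TNFAIP3 (A20), the deubiquitinase that restrains NF-kB, was the called member with the largest change, at 12.4 ± 1.14 and 6.47 ± 0.010 FPKM (-0.93 ± 0.10). MLKL, the effector of necroptosis, and TRAF3 were called lower (-0.69 ± 0.15 and -0.50 ± 0.10). The adaptors TRAF1 and TRAF2, the kinase RIPK1 and the initiator CASP8 were not called.

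Among 17 genes of the NF-kB core, all tested, 2 were called higher, 4 lower and 11 were not called (median -0.03), both shares being below the 32.5% and 25.9% of all genes tested. The balance turned with FPKM rescaled to the same sum, where 4 were called higher and 1 lower. The count called lower was 1 without butyrate culture 1 or 2 and 2 without any single control culture, and the count called higher was 1 without control culture 3, butyrate culture 2 or butyrate culture 3. MAP3K14 (NIK), the kinase of the non-canonical pathway, had 1.05 ± 0.322 and 2.04 ± 0.419 FPKM and was called higher (0.92 ± 0.27). MAP3K7 (TAK1) was called higher as well (0.54 ± 0.08). NFKBIA, the inhibitor of NF-kB that is itself a target of it, and TAB2, a partner of TAK1, were called lower (-0.42 ± 0.07 and -0.49 ± 0.15).

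Of 5 proteases and partners that shed ligands and receptors from the membrane, 3 were called higher and 2 were not called, with a median of 0.20, beside 32.5% called higher among all genes tested. The count called higher was 1 without control culture 2, and 1 was called lower without control culture 1. With all cultures, the 3 called higher were ADAM10 (0.41 ± 0.06), ADAM17 (0.20 ± 0.07), the TNF-converting enzyme, and RHBDF2 (0.20 ± 0.07), which brings ADAM17 to the surface. Another list held 8 genes named for induction by TNF or for likeness to such a gene. Of these 6 were tested, 3 were called higher and 1 lower, with a median of 0.15, beside 32.5% and 25.9% of all genes tested. TNFAIP2 had 6.82 ± 0.910 and 17.4 ± 3.11 FPKM (1.33 ± 0.15), and TNFAIP8L3 was called higher from a low level (2.12 ± 0.50). TNFAIP1 was called higher (0.24 ± 0.06), and TNFAIP3, counted in the list of adaptors and death effectors too, was called lower.

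Several cell type markers, including those of epithelial cells, moved with the treatment beside these members. For comparison with each list here, 32.5% of all genes tested were called higher and 25.9% lower. All 7 tested fibroblast markers of 9 were called higher (median 0.76), and PDGFRB and FAP did not reach the filter. The summed levels of the list, mostly from collagen genes, were 1924 to 1982 FPKM in control and 2790 to 3038 in butyrate cultures. The largest change was in THY1, which went from 21.5 to 87.6 FPKM (2.03 ± 0.09). Both tested endothelial markers of 6, PECAM1 and VWF, were called higher (median 1.97), with sums over the list of 1.97 to 2.16 and 6.70 to 8.43. The others did not reach the filter. CDH5 was at 0 in every culture, and KDR and CLDN5 were at 0 in control and reached at most 0.0146 and 0.366 FPKM in butyrate cultures. TEK was above 0 only in control cultures 1 and 2, at 0.0162 and 0.0873 FPKM. Of 13 epithelial markers, all tested, 8 were called higher and 1 lower (median 0.52), with sums of 6362 to 6632 and 9048 to 9361, and the largest called changes were in KRT14 (2.78 ± 0.07), EPCAM (2.44 ± 0.26), PKP1 (2.08 ± 0.15) and KRT19 (1.99 ± 0.03). The part of these shifts in the changes of the TNF superfamily members was not tested.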

How the data were processed

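The authors trimmed the paired-end reads of the 6 libraries with Trim Galore 0.4.1, aligned them with STAR, kept uniquely mapped reads and deposited FPKM per gene from Cufflinks, with a confidence interval. The processing notes name UMD 3.1. Strand handling is not given in the sources used here, so reads of overlapping genes cannot be assigned with certainty. Rows were joined by position. Starts count from 0 in the files, and 1 was added. Of 32183 genes, 24 had no symbol and 2 with a failed estimate were left out, none of them a member.

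log2(FPKM + 0.1) was compared in limma 3.58.1 (R 4.3.3, mean-variance trend, two-sided, 3 against 3 cultures, no covariates) for genes with mean FPKM of at least 0.1, and p-values were adjusted over all 15813 genes. Fold changes on this scale understate changes of low genes. The fit was tested on simulated data that held large changes only, so that test does not cover small changes. Members and lists were chosen with earlier results of these data known. The text names all members, and from each list up to 4 called genes with the largest change, plus uncalled genes chosen after their values were seen. A called gene of the signalling list is not reported here. Alternatives were another pseudocount, filter, scaling or variance model, a replicate block, and each culture left out.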

Additional observations from a re-analysis of the deposited data

How the results depend on the processing

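Of the 14 called members, 10 kept their call in every alternative fit that gave them a value, and LTBR, TNFRSF10D, TNFRSF21 and TNFSF18 lost it in at least 1. The count called lower moved to 7 with quantile normalization and to 2 with FPKM rescaled to the same sum in each culture. Leaving out each culture gave 8 to 11 members called higher, 4 to 5 called lower, and 12 to 13 with a control mean of at least 1 FPKM. Signs turned only for members that were not called. On the log2 scale, quantile normalization gave 0.0376 for TNFRSF1A, -0.59 for TNFRSF25 and -0.71 for TNFSF4, rescaling gave 0.10 for TNFRSF1A and 0.10 for TNFSF12, and a pseudocount of 1 gave -0.0069 for TNFSF4. Without 1 culture, the values ran from -0.0781 to 0.10 for TNFRSF25, from -0.0589 to 0.0035 for TNFSF12, from -0.30 to 0.42 for TNFSF4, from -0.95 to 0.51 for CD70 and from -0.44 to 0.33 for TNFSF13B.

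Replicate numbers showed no pairing across the genes tested: deviations of same-numbered cultures correlated at 0.0228, -0.0043 and 0.0018. The labels state no pairing, and these values cannot exclude one in how cultures were set up or in part of the genes. With the number as a replicate block, 10 members were called higher and 4 lower, 3 and 1 under the stricter thresholds, and no member's call changed. Among the gene lists, the block gave 2 NF-kB core genes called lower, 1 signalling gene called higher and 1 shedding gene called higher. Without the filter on low values, 1 NF-kB core gene was called higher and 2 lower, 1 signalling gene was called higher and 3 lower, and 0 superfamily genes outside the symbol rule were called higher, also 0 with quantile normalization, a pseudocount of 1 or a minimum mean of 1 FPKM (limma; EDA is the gene concerned). Quantile normalization gave 1 NF-kB core gene called higher. Rescaling gave 4 NF-kB core genes called higher and 1 lower, and 5 signalling genes called higher and 3 lower. Leaving out each culture gave 1 to 2 NF-kB core genes called higher and 1 to 4 lower, 1 to 3 signalling genes called higher and 5 to 7 lower, 1 to 3 shedding genes called higher and 0 to 1 lower, and 0 to 1 superfamily genes outside the symbol rule called higher. Without that filter, 2 members were higher under the stricter thresholds. The files hold no counts, and for members below about 1 FPKM the confidence intervals often reach 0, so a change there may not be detectable.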
